A study of Rattus norvegicus with 12 samples.

Results

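A set of 9 genes of glycogen metabolism was examined in the prefrontal cortex (PFC) of rats after acute footshock (FS) stress. They were picked by gene symbol for their function: the synthesis genes Gyg1, Ugp2, Gys1 and Gbe1, the phosphorylase genes Pygb and Pygm, and Ppp1r3c, Ppp1r3d and Ppp1r3g, whose proteins bring protein phosphatase 1 (PP1) to glycogen. A gene was measured where the platform annotation gave a probe set its symbol alone, which held for 8 of the 9, each with 1 probe set. Ppp1r3c, with no such probe set, was not analysed here. All 8 measured genes had a mean log2 value above 4 and were tested together with the rest of 14847 genes on 16085 probe sets.

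The PFC came from adult male Sprague-Dawley rats, 6 stressed and 6 controls, with 1 array per rat. Stressed rats had a 40 min FS session at 0.8 mA, with 20 min of actual shock and gaps of 2 to 8 s between shocks. They went back to the home cage and were killed 2 h after the session began. Controls had no session and stayed in the home cage, so the session and the move out of the cage cannot be told apart. No allele or drug was involved, and the tissue was whole PFC in both groups.

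Glycogen is the cell's store of glucose, and in the brain most of it lies in astrocytes. Glycogenin primes each particle, UDP-glucose supplies the sugar, glycogen synthase lengthens the chains and the branching enzyme forks them, while glycogen phosphorylase releases glucose 1-phosphate from the chain ends. Phosphorylation activates phosphorylase and inactivates synthase. PP1, held on glycogen by its targeting subunits, reverses both, and noradrenaline released during arousal is a known trigger of glycogen breakdown in astrocytes.

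Array medians ran from 5.48 to 5.54 on the log2 scale, array pairs correlated at 0.994 to 0.998 across probe sets, and 0 pairs were identical. The dimmest probe sets separated Control 1 to 4 (array set 1) from Control 5, Control 6 and all 6 stressed rats (array set 2), for which the labels give no batch. Values within array set 2 therefore stand beside the results. Neuronal markers were measured at mean log2 values of 8.22 to 11.998 (10 of 10 tested) and astrocyte markers at 7.24 to 11.6 (11 of 12). The astrocyte list mean, centred on each gene, ran from −0.082 to 0.079 in controls and from −0.095 to 0.053 in stressed rats, and the neuronal one from −0.062 to 0.073 and from −0.068 to 0.019. Control 5 carried choroid plexus genes, with a list mean of 3.36 against at most −0.096 in every other array. This array and Control 6 are the only controls behind the values within array set 2. Myelin genes were higher in stressed rats in 10 of 10 cases, with list means of −0.34 to 0.25 in controls and −0.052 to 0.22 in stressed rats. The lowest were those of Control 1, 2 and 3 (−0.34, −0.25 and −0.21), all in array set 1. Control 5 and 6, in array set 2, stood at 0.087 and −0.054. Blood cell (5 of 5) and striatal (9 of 9) markers were lower, with means overlapping between the groups, and 0 markers of these lists passed the threshold. The part of these cell types in the results was not tested. In whole tissue, fewer cells of a type and less RNA per cell cannot be told apart.

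None of the 8 glycogen genes passed the threshold 2 h after the start of stress. Ppp1r3g had the highest ratio of stressed to control level, 1.11, Gyg1 stood at 1.07 and Pygm at 0.932, and these 3 had an unadjusted limma p under 0.05. At an adjusted p of at most 0.05 the count was 0 of 8, against 0.0435% of all probe sets tested. At an unadjusted p under 0.05 it was 3 of 8 by limma, against 6.35% of all probe sets, and 3 of 8 by the exact permutation test, against 6.21%. The genes were proposed with results of these data known, so that share is a description. The median log2 difference was 0.046 over the 8 genes, 5 of them higher and 3 lower, against 0.0038 over all genes tested. With array set as a term the median turned to −0.041, with 2 genes higher and 6 lower. In that fit 1 of the 8 genes, Ppp1r3g, had an unadjusted limma p under 0.05. In the fit with group only every 95% interval lay between −0.18 and 0.26, which is 0.881 to 1.20 times the control level. With array set as a term the bounds were −0.27 (Gys1) and 0.38 (Ppp1r3g), or 0.831 to 1.30 times.

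**Figure D1:**
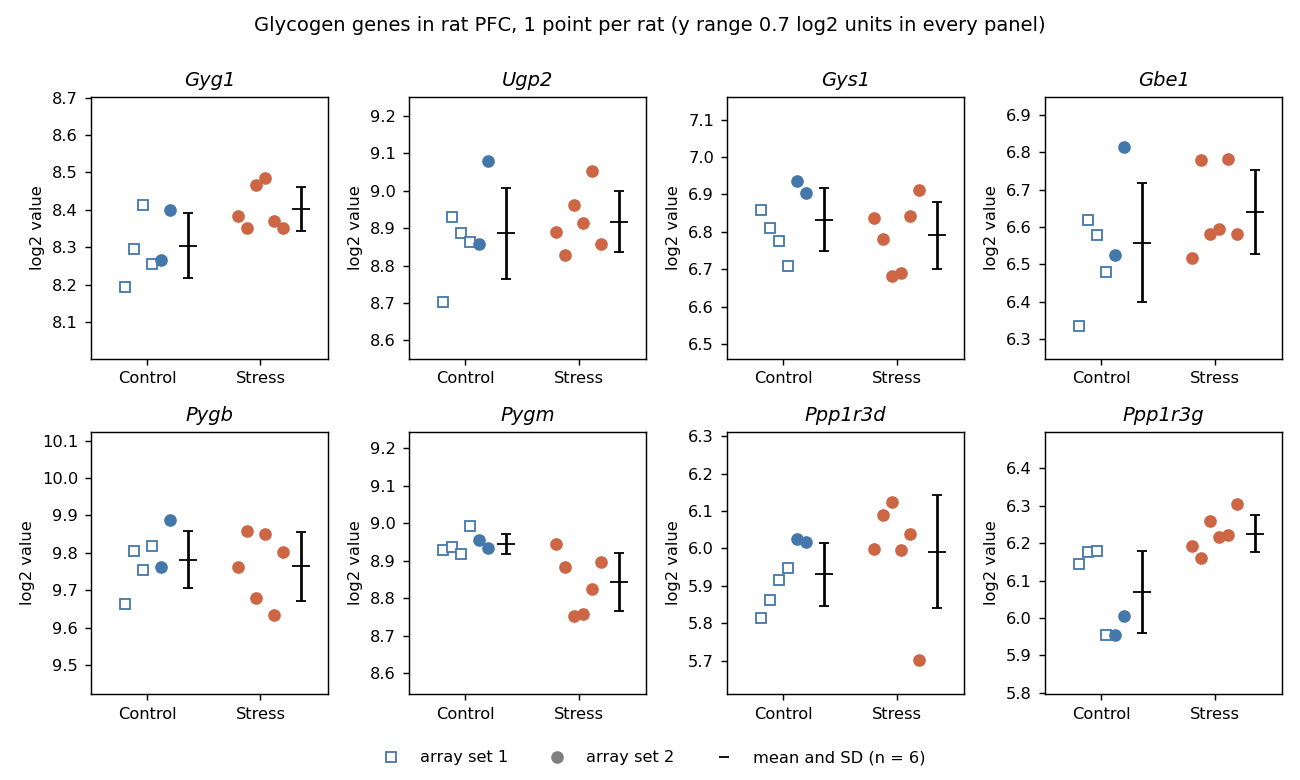
Log2 value (y axis, a range of 0.7 units in each panel) of the 8 glycogen genes in each control and stressed rat. Open squares are arrays of set 1, filled circles arrays of set 2, and black bars the mean and SD of 6 rats. Ppp1r3g lies higher and Pygm lower in most stressed rats, and the groups overlap in all 8 panels.

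The synthesis genes were taken first, in the order of the pathway. Gyg1 encodes glycogenin, the protein that glucosylates itself to start a particle. Its lowest, median and highest log2 values were 8.19, 8.28 and 8.41 in controls and 8.35, 8.38 and 8.48 in stressed rats. All 6 stressed rats lay above the control median, but only Stress 3 and Stress 4 lay above the highest control, Control 3. The mean went from 8.30 ± 0.087 to 8.40 ± 0.059 (SD, n = 6 each), a log2 difference of 0.098 (95% interval 0.0039 to 0.19, limma adjusted p = 0.773). A two-sided exact permutation test over the 924 labellings of the arrays gave p = 0.0455. Within array set 2 the difference was 0.069 (exact permutation p = 0.25).

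Ugp2 encodes UDP-glucose pyrophosphorylase, which makes the UDP-glucose that glycogen is built from. Its values ran from 8.70 to 9.08 in controls and from 8.83 to 9.05 in stressed rats. The stressed range lay inside the control range, and the difference was 0.031 (95% interval −0.090 to 0.15, limma adjusted p = 0.960). Gys1, the glycogen synthase of muscle and brain, ran from 6.71 to 6.94 in controls and from 6.68 to 6.91 in stressed rats, with a difference of −0.042 (95% interval −0.15 to 0.064, limma adjusted p = 0.937). Here Stress 3 and Stress 4 lay just below the lowest control, Control 4. The difference was −0.13 within array set 2 (exact permutation p = 0.107), and between −0.067 (without Control 4) and −0.020 (without Stress 3) when single arrays were left out.

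Gbe1, the branching enzyme, had the largest control SD of the 8 genes, 0.16, and an SD of 0.11 in stressed rats. It ran from 6.33 (Control 1) to 6.81 (Control 6) in controls and from 6.52 to 6.78 in stressed rats, again inside the control range. The difference of 0.081 had a 95% interval of −0.073 to 0.23 (limma adjusted p = 0.899) and was 0.036 without Control 1 and 0.13 without Control 6. With array set as a term Ugp2 and Gbe1 turned to −0.052 and −0.030, since Control 5 and 6 averaged 0.12 and 0.17 above Control 1 to 4 for these genes. That gap came mostly from Control 6, at 9.08 and 6.81. Control 5, at 8.86 and 6.53, lay near the Control 1 to 4 means of 8.85 and 6.50.

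The phosphorylases followed. Pygb encodes the brain form of glycogen phosphorylase, and Pygm the form first known from muscle, which astrocytes also make. Pygb ran from 9.66 to 9.89 in controls and from 9.63 to 9.86 in stressed rats, and its difference was −0.017 (95% interval −0.12 to 0.085, limma adjusted p = 0.976). That interval is 0.92 to 1.06 times the control level. With array set as a term the difference was −0.061, with an interval of −0.21 to 0.085 or 0.866 to 1.06 times.

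Pygm was the most even gene of the 8 in controls, with an SD of 0.027. Its lowest, median and highest values were 8.92, 8.94 and 8.99 in controls and 8.75, 8.85 and 8.94 in stressed rats. In Pygm 5 stressed rats lay below all 6 controls, and Stress 1 lay inside the control range. The mean went from 8.94 ± 0.027 to 8.84 ± 0.078 (SD, n = 6 each), a difference of −0.10 (95% interval −0.18 to −0.021, limma adjusted p = 0.669, exact permutation p = 0.0108 unadjusted). The difference was −0.10 within array set 2 as well (exact permutation p = 0.179), where Control 5 and 6 stood 0.00079 above the mean of Control 1 to 4.

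Since Pygm is also a muscle gene, skeletal muscle markers were read beside it. Of 15 named markers 10 were tested, 7 lower and 3 higher in stressed rats, with 0 past the threshold, and the list mean ran from −0.091 to 0.37 in controls and from −0.14 to −0.044 in stressed rats. The list mean shifted by −0.18, stressed minus control. Acta1, skeletal alpha-actin, differed by −0.022 and Ckm, muscle creatine kinase, by 0.028 (limma adjusted p of 0.963 and 0.949). Car3, a carbonic anhydrase of muscle and fat, differed by −1.86 (limma adjusted p = 0.624). As the list mean averages the 10 tested markers, Car3 alone makes up nearly all of its shift of −0.18. The highest list means were in Control 1, Control 3 and Control 6. There Car3 was 8.69, 7.95 and 7.75, and it was at most 5.24 in the other arrays. Pygm was 8.93, 8.92 and 8.93 in those 3 rats, the lowest of its control values. It was 8.94 to 8.99 in Control 2, Control 4 and Control 5. The part of muscle tissue in the Pygm value was not tested.

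**Figure D2:**
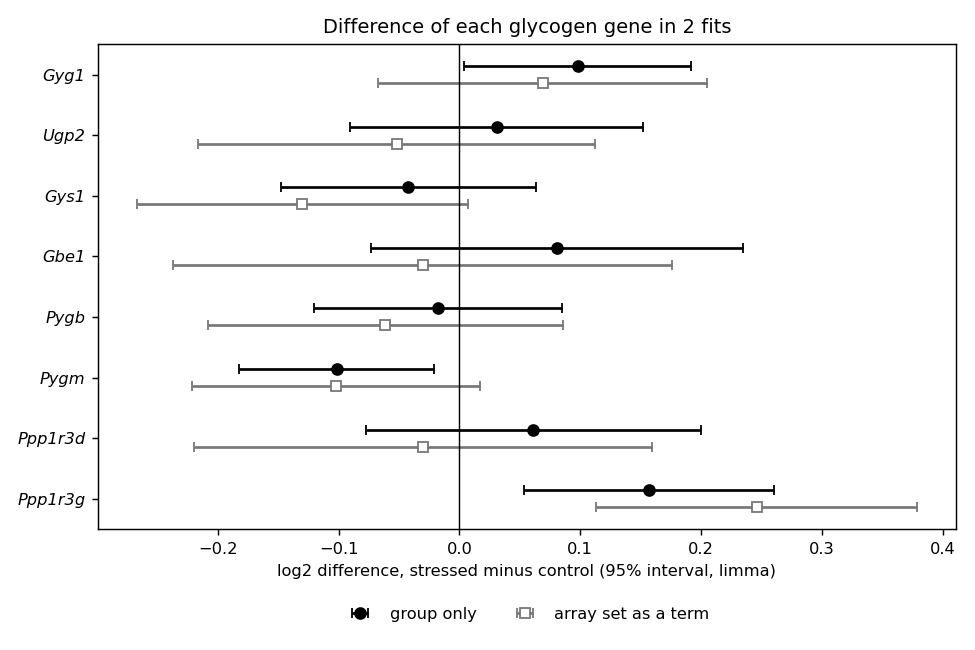
Log2 difference of each glycogen gene, stressed minus control (x axis), with its 95% limma interval, from the fit with group only (filled circles) and with array set as a term (open squares). The median over the genes is 0.046 in the first fit and −0.041 in the second, and Ppp1r3g is the gene whose interval stays above 0 in both.

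The PP1 targeting subunits were compared last. Ppp1r3g encodes a subunit that binds glycogen and PP1 and that, in mouse liver, promotes glycogen synthesis after feeding. Its lowest, median and highest values were 5.95, 6.07 and 6.18 in controls and 6.16, 6.22 and 6.30 in stressed rats. For this gene 5 stressed rats lay above all 6 controls, and Stress 2, at 6.16, lay between Control 1 (6.14) and Control 2 (6.18). The controls themselves formed a higher trio, Control 1 to 3 at 6.14 to 6.18, and a lower trio, Control 4 to 6 at 5.95 to 6.01. That split matched the array sets except for Control 4, which is in set 1. The mean of Control 5 and 6 minus that of Control 1 to 4 was −0.13.

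The mean of Ppp1r3g went from 6.07 ± 0.11 to 6.23 ± 0.050 (SD, n = 6 each), a log2 difference of 0.16 (95% interval 0.053 to 0.26, SE 0.048). It did not pass the threshold over all probe sets (limma adjusted p = 0.507), and the exact permutation p was 0.00866 unadjusted. Within array set 2 the difference was 0.25 (exact permutation p = 0.0357, the smallest that its 28 labellings can give). With array set as a term the limma adjusted p was 0.538 (SE 0.061). Left out in turn, single arrays moved the difference between 0.13 (without Control 5) and 0.18 (without Control 3).

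The promoters of Ppp1r3g and Pygm are shown because these genes had the smallest p-values, in opposite directions. Both come from RefSeq, build GRCr8, and cover 250 bases before to 50 after the annotated start, read 5′ to 3′ on the gene's strand. Capitals mark matches, on either strand, to AGAACA (the half-site of the glucocorticoid response element), the palindromic form of that element (a pair of half-sites facing each other across a 3-base gap, so it overlaps the half-site), TGACGTCA (the cAMP response element), CACGTG (an E-box), GGGCGG (a GC box) and CCAAT.
Ppp1r3g, chr17:29083690-29083989, minus strand: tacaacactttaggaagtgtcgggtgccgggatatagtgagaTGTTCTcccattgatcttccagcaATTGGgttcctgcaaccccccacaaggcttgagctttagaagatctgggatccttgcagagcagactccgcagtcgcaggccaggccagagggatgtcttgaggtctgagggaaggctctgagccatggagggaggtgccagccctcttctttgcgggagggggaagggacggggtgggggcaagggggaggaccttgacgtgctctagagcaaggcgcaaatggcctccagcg
Pygm, chr1:213119555-213119854, plus strand: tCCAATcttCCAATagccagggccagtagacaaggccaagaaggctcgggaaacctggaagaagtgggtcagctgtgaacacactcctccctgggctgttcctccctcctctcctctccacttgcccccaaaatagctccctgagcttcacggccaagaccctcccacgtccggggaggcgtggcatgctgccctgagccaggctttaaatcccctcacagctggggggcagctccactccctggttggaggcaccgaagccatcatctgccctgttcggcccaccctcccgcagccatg

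The Ppp1r3g window held 1 half-site, on the opposite strand, beginning at position −208 from the start, and 1 CCAAT match. The Pygm window held 2 CCAAT matches and neither the half-site nor a GC box. Over the 8 genes the half-site was found in 2 windows (Gys1 and Ppp1r3g), against 20.7% of 33469 RefSeq promoter windows of the same length. GC boxes were found in 6 of 8 windows, all but those of Pygm and Ppp1r3g, against 33.1%. The 8 windows had a GC content of 56.3% (Pygb) to 77% (Ppp1r3d), each above the median of 51.7% over all windows. The E-box was in 2 (Gyg1 and Ppp1r3d, against 6.42%), CCAAT in 3 (against 37.5%), and the palindrome (0.0149%) and the cAMP response element (1.83%) in 0. A match of letters is a description and not a binding site.

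Ppp1r3d encodes another glycogen-targeting subunit of PP1. Its values ran from 5.81 to 6.03 in controls and from 5.70 to 6.12 in stressed rats. Of the stressed rats 3 lay above every control, while Stress 6, at 5.70, lay below every control and 0.30 under the next stressed rat. The difference was 0.061 (95% interval −0.078 to 0.20, limma adjusted p = 0.930), 0.12 without Stress 6 and −0.030 within array set 2.

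**Figure D3:**
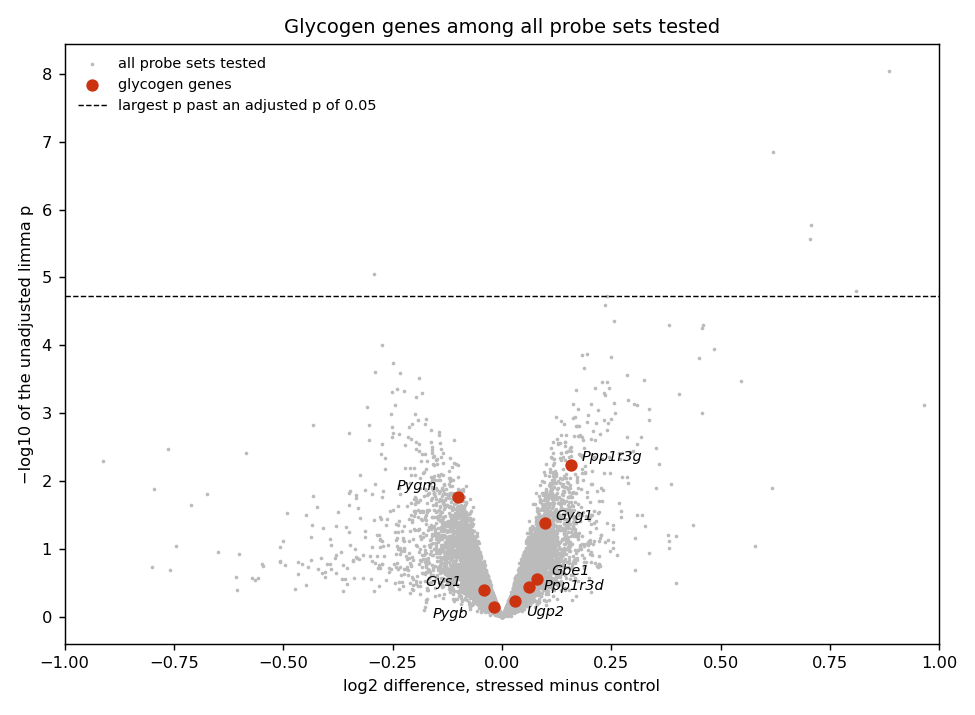
Log2 difference, stressed minus control (x axis), against −log10 of the unadjusted limma p (y axis) for all 16085 probe sets tested (grey; 2 lie outside the x range) and the 8 glycogen genes (red). All 8 glycogen genes lie below the dashed line, the largest p that passed an adjusted p of 0.05.

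How the genes varied together from rat to rat was described after the group means were removed, over 12 arrays and 28 pairs. Of these, 15 pairs had a positive Pearson r, 3 had an unadjusted permutation p under 0.05, and 0 passed Benjamini-Hochberg adjustment. Rats high in Ppp1r3g tended to be low in Ppp1r3d (r = −0.59, permutation p = 0.0167, adjusted p = 0.239; Spearman rho = −0.65, permutation p = 0.0212, adjusted p = 0.297). Without the 2 arrays farthest from the median of Ppp1r3d r was −0.52, and within array set 2 it was −0.65. Gyg1 and Pygm also ran against each other (r = −0.56, permutation p = 0.0297, adjusted p = 0.277). Spearman rho was −0.55 (permutation p = 0.0578, adjusted p = 0.539). Their r was −0.62 without the 2 arrays farthest from the median of Gyg1 and −0.70 within array set 2. For Gbe1 and Ugp2 r was 0.75 (permutation p = 0.0171, adjusted p = 0.239; rho = 0.54, permutation p = 0.0906, adjusted p = 0.628). It was 0.32 without the 2 arrays farthest from the median of Gbe1, and 0.62 within array set 2. By group it was 0.99 in controls and 0.25 in stressed rats. By rank, the strongest of the 28 pairs was Gyg1 and Ugp2 (Spearman rho = 0.78, permutation p = 0.00692, adjusted p = 0.194). Its Pearson r was 0.61 (permutation p = 0.0552, adjusted p = 0.387).

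The genes whose pattern over the 12 arrays was most like that of a member, by the highest Pearson r after removal of the group means, were then listed, with no test because each was picked as the highest of 14839 genes. For Ppp1r3g they were Pdzk1 (0.92), Gnrhr (0.91) and Tnnt3 (0.90), and for Pygm Prpmp5 (0.87), Pcbp4 (0.85) and Lmcd1 (0.85). Tnnt3 is also among the named skeletal muscle markers. The first gene for each other member was Tigd5 for Gys1 (0.91), Cab39 for Gbe1 (0.94), Mcur1 for Gyg1 (0.90), Psmc1 for Ugp2 (0.95), Dnajc13 for Pygb (0.88) and Cmtm3 for Ppp1r3d (0.91). None of these 12 genes passed the threshold between groups. Pdk4, a kinase that inhibits pyruvate dehydrogenase, came next after Cmtm3 for Ppp1r3d (r = 0.91, and 0.69 without the 2 farthest arrays) and did pass, with a difference of 0.81 (limma adjusted p = 0.0419; 0.64 with adjusted p = 0.637 with array set as a term). It is named after its values were seen.

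Other genes of the pathway were read from 5 lists of 43 genes. Of these 37 had a single-symbol probe set and 35 had a mean above 4, and 0 of 35 passed the threshold (0.0435% of all probe sets did). By limma 3 had an unadjusted p under 0.05, against 6.35% of all probe sets, 15 were higher and 20 lower (16 and 19 within array set 2), and their median difference was −0.0053. Genes with no single-symbol probe set were not analysed here. Gys2, the liver synthase, and Ppp1r3a, the PP1 subunit of skeletal muscle, were at or below a mean of 4.

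The gene that stood apart was Slc2a1, which encodes GLUT1, the glucose transporter of the blood-brain barrier and of astrocytes. It ran from 9.75 to 9.96 in controls and from 10.02 to 10.23 in stressed rats. The lowest stressed rat was higher than the highest control, as for 0.311% of all probe sets. The mean went from 9.87 ± 0.082 to 10.1 ± 0.088 (SD, n = 6 each), a difference of 0.25 (95% interval 0.15 to 0.35, SE 0.048) that did not pass the threshold over all probe sets (limma adjusted p = 0.137, exact permutation p = 0.0022 unadjusted, the smallest possible). Within array set 2 it was 0.26. Endothelial markers went the other way in 6 of 7 tested cases, with list means of −0.018 to 0.17 in controls and −0.15 to −0.031 in stressed rats, and their part in the Slc2a1 value was not tested. Slc2a3, the neuronal transporter GLUT3, was at 0.080 (95% interval −0.070 to 0.23, limma adjusted p = 0.897; 0.17 within array set 2), and in all 4 of 6 tested genes of glucose entry and exit were higher.

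Among 13 kinases and kinase subunits, Prkag2 and Prkag1, both regulatory gamma subunits of the AMP-activated kinase, had the smallest p. Prkag2 was at 0.13 (95% interval 0.012 to 0.26, limma adjusted p = 0.742) and Prkag1 at 0.081 (95% interval 0.0062 to 0.16, limma adjusted p = 0.748), while 9 of the 13 were lower (10 within array set 2). The 5 subunits of phosphorylase kinase, which activates phosphorylase, and both glycogen synthase kinases lay between −0.046 (Phkb) and 0.051 (Phka1). Within array set 2 Phkb was at −0.13 and Phka1 turned to −0.082. Prkaa2, a catalytic subunit of the AMP-activated kinase, had probe sets that disagreed: the one with the higher mean was at −0.031 and another at 0.13, and neither passed the threshold.

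Of 7 other PP1 subunits and inhibitors 3 were higher and 4 lower. Ppp1r1a, an inhibitor of PP1, was at −0.11 (95% interval −0.24 to 0.030, limma adjusted p = 0.839) and Ppp1cb, a catalytic subunit, at 0.055 (95% interval −0.019 to 0.13, limma adjusted p = 0.842). Of 4 other glycogen enzymes 3 were lower. Pgm2 and Pgm1, of the phosphoglucomutase family that links glucose 1-phosphate and glucose 6-phosphate, were at −0.059 and −0.043 (−0.10 and −0.087 within array set 2, limma adjusted p over all arrays 0.842 and 0.897). Of 5 genes of glycogen quality control 3 were higher (5 within array set 2), and over all arrays they lay between −0.025 and 0.023. Wdr45, an autophagy protein, was at −0.025 and Nhlrc1, which encodes the ubiquitin ligase malin, at 0.023, and these were 0.033 and 0.057 within array set 2 (limma adjusted p of 0.957 and 0.961 over all arrays).

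**Figure D4:**
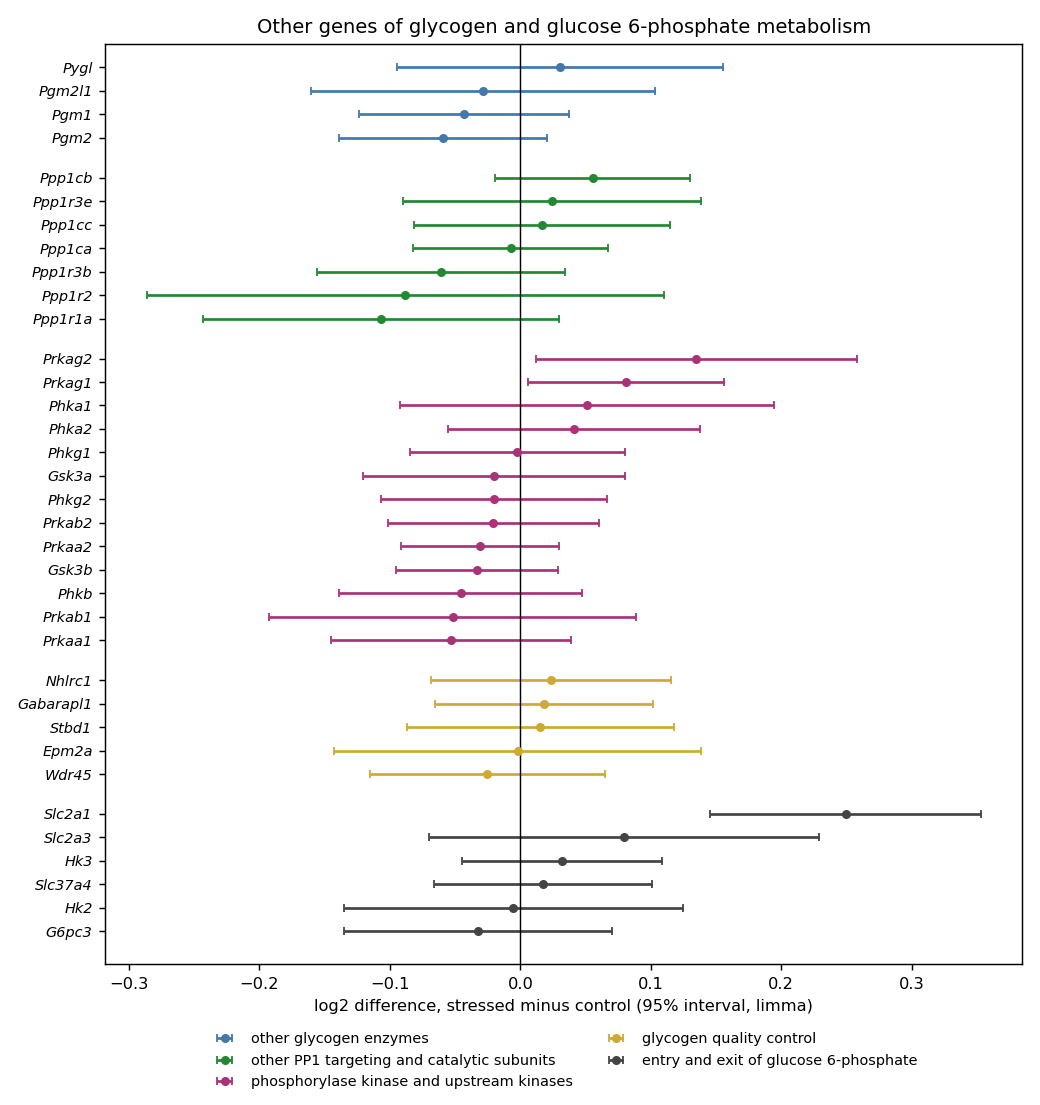
Log2 difference, stressed minus control (x axis), with its 95% limma interval for 35 other genes of glycogen and glucose 6-phosphate metabolism, coloured by list. Slc2a1, at 0.25, lies apart, and the other genes lie between −0.11 and 0.13.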

How the data were processed

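Total RNA from rat PFC (250 ng) was amplified and labelled with random primers and hybridised to Affymetrix Rat Gene ST arrays. The deposited table held a log2 value for each probe set and rat, which the authors made from the scanner files with RMA of oligo (version 1.58.0): background correction, quantile normalization between arrays and summary of the probes. A shift common to most genes is removed by that normalization, changes of dim probe sets are understated, and levels of different probe sets are not comparable. Of 29214 probe sets 18644 had 1 platform symbol, 962 had several, and 9608 were unlisted. Symbols were updated through the gene identifier with RefSeq (GRCr8), matched for 99.0%.

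Stressed and control rats were compared with limma 3.58.1 in R 4.3.3 (lmFit, then eBayes), two-sided, with group as the only term, on probe sets with 1 symbol and a mean above 4. The methods give limma and the minimum of 4. Reading that minimum on the mean and keeping single-symbol probe sets were choices made here. Benjamini-Hochberg adjustment ran over all 16085 probe sets, with a threshold of 0.05. A gene with several probe sets was read from the one of highest mean. The script was tested on simulated data. Exact permutation tests were two-sided. Array sets came from the largest gap on the first principal component of the 1000 dimmest probe sets. Correlation p-values used 100000 permutations within groups. The genes named are the 8 members, any list gene past the threshold or else the 2 of smallest p per list, and the genes most like each member. Markers and pairs of discordant probe sets were named after their values were seen. The members and lists were chosen with earlier results of these data known. Arrays carry no read depth, and their number limits the precision. Alternatives were other filters, scalings, variance models, covariates and samples.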

Additional observations from a re-analysis of the deposited data

Results flagged for a closer look

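Of 36 groups of 6 rats looked at (18 named genes in both conditions), 1 held a rat far from the others. Ppp1r3d in Stress 6 was 5.70, while the other 5 stressed rats ran from 6.00 to 6.12 and averaged 6.05. The gap was 0.698 of the group's whole range, above Dixon's 95% critical value for 6 samples. Chance flags about 1 in 20 such groups.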

How the results depend on the processing

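Of the 8 glycogen genes 0 passed the threshold under any of 24 alternatives. Gys1, Gyg1, Pygm and Ppp1r3g kept their direction under all 24, but not all of these could turn it. Other filters, the trend and robust prior of eBayes, the replicate block and the exact permutation test leave a log2 difference unchanged. Array set as a term and within array set 2 give the same difference. Ppp1r3g ran from 0.13 to 0.18 when single arrays were left out and from 0.15 to 0.25 otherwise, with adjusted p of 0.377 to 0.803. With array set as a term, and equally within array set 2, the median over the genes was −0.041, Gbe1 −0.030, Ugp2 −0.052 and Ppp1r3d −0.030, so 2 genes were higher and 6 lower, and 1 of the 7 probe sets past the threshold remained, the same 1 in both. These values rest on Control 5 and 6 alone among controls, and Control 5 is the array that carried choroid plexus genes. For Gbe1 and Ugp2 the stressed means, 6.64 and 8.92, lay above Control 5 (6.53 and 8.86) and below Control 6 (6.81 and 9.08). Their turn rested on Control 6. For Ppp1r3d the stressed mean without Stress 6 was 6.05, against 6.02 for the mean of Control 5 and 6. Leaving out single arrays gave 4 (lowest without Control 4, Control 6 or Stress 1, 2 or 3) to 8 probe sets past the threshold, a median of 0.015 to 0.074 over the genes (lowest without Control 1), −0.0061 (without Control 1) to 0.070 for Ugp2, and −0.041 to 0.0088 for Pygb, above 0 without Control 6 or Stress 5. The exact permutation test, whose smallest p is 0.0022, passed 0 probe sets after adjustment and 999 at an unadjusted p under 0.05. With that smallest p, adjustment over all probe sets passes none unless very many have a p near it. The 0 of this setting, also for the 8 genes, therefore says little. The labels do not say that replicate numbers pair rats. Same-numbered pairs correlated at −0.14 to 0.42, 4 of 6 above 0.1, and 3 of 6 controls correlated best with their own number. The replicate block gave 6 probe sets past the threshold, 0 of the 8 genes, and for Ppp1r3g 0.16 (adjusted p = 0.524). Averaging the probe sets of a gene was not run, since each member had 1. The limits are 6 rats per group, 1 time point and mRNA only.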
